A study of Sus scrofa with 12 samples.

Results

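The genes described are HSPA6, HSPH1 and HSP90AA1, which encode the stress-inducible members of the cytosolic HSP70, HSP110 and HSP90 chaperone families. They were taken as all probe sets whose single gene symbol in the platform annotation is one of these 3 names, which gave 7 probe sets of the 10069 with 1 symbol, or 3 genes of 6765. HSPA6 (NCBI gene 396906) and HSPH1 (gene 100048931) have 1 probe set each, and HSP90AA1 (gene 397028) has 5. The samples were portions of the semimembranosus, a thigh muscle, of 3 female commercial hybrid pigs of about 160 kg from 1 farm. The pigs were stunned with CO2 and slaughtered, and a piece of that muscle was taken 20 min, 2 h, 6 h and 24 h after death while the carcass cooled to 4 °C, giving every pig 1 array for each of the 4 times. No living or untreated muscle is among the 12 arrays, and the 20 min portions, already taken after stunning and death, are the earliest point. Values are log2 intensities from Affymetrix porcine arrays, on which 1 unit is a 2-fold difference.

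Chaperones of the HSP70 family bind exposed stretches of unfolded proteins and release them in a cycle driven by ATP. J-domain cochaperones bring the client and start ATP hydrolysis, and HSP110 proteins such as HSPH1 act as nucleotide exchange factors that reopen HSP70. HSP90 receives clients from HSP70 through adaptor cochaperones and helps kinases, receptors and, in muscle, myosin to mature. Heat, acid and oxidative stress release heat shock factor 1, which switches on the genes of these proteins together; HSPA6 is known in human cells as a gene with little expression in the absence of stress.

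Array medians lay between 5.89 and 5.94, which the RMA normalisation makes nearly equal, and correlations between any 2 arrays ran from 0.986 to 0.997. The excess of 3′ over 5′ signal of the EF1A control ran from 0.23 (pig 3 at 20 min) to 1.11 (pig 2 at 2 h). That of ACTB was larger, from 2.0 (pig 2 at 24 h) to 2.54 (pig 2 at 2 h). GAPDH was below 0 on all arrays, from -0.304 (pig 2 at 6 h) to -0.157 (pig 3 at 24 h). Of 12 muscle markers 10 were on the array, with mean log2 intensities from 13.4 to 14.5. HSPH1 was in all 3 pigs lower at 24 h than at 20 min, HSPA6 differed more between pigs than over time, and the 5 HSP90AA1 probe sets did not all lie on one side of 20 min. None of the 7 probe sets passed limma's test after Benjamini-Hochberg adjustment over all 23999 probe sets, in any of the 5 comparisons of times or in the F test for any difference among the 4 times. The smallest adjusted p was 0.210, for HSPH1 at 24 h. At an unadjusted p under 0.05, 1 of the 7 was lower and 1 higher at each later time against 20 min. Over all probe sets 3.94% were lower and 4.01% higher at 2 h, 4.54% and 4.29% at 6 h, and 6.67% and 6.41% at 24 h, and with 7 probe sets a count of 1 is read no further. After adjustment 0% of all probe sets passed at 2 h and 6 h and 0.00417% at 24 h. In the F test 3 of the 7 had an unadjusted p under 0.05, against 8.22% of all probe sets, and 1 of all probe sets (0.00417%) passed the adjusted threshold. Either with pig as a random block or with no block, 1 of the 7 (Ssc.12191.3.A1_at of HSP90AA1) had such a p in the F test, and the unadjusted F p of HSPH1 was 0.211 and 0.544 in these fits by limma, against 0.0174 with the fixed block. Over all 23999 probe sets, 1972 had an unadjusted F p under 0.05 with the fixed block, 1562 with the random block and 628 with no block. The same 20 min arrays serve each comparison with 20 min, so those comparisons share their chance values.

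**Figure D1:**
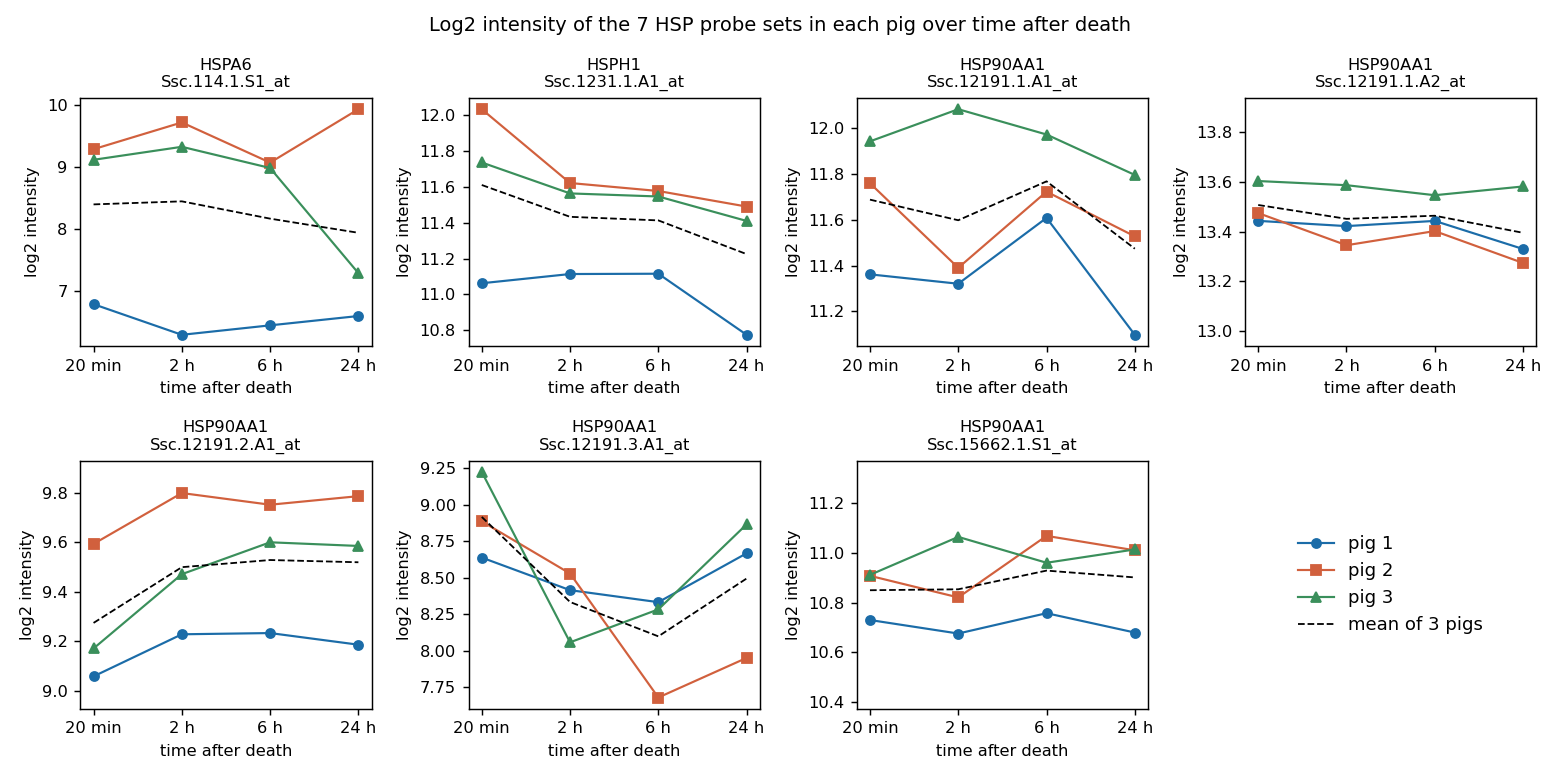
Log2 intensity (vertical axis, scaled to each panel) at 20 min, 2 h, 6 h and 24 h after death for the 7 probe sets, with 1 line per pig and the mean of 3 pigs dashed. Pig 1 lies lowest for HSPA6 and HSPH1 at every time, and the HSPA6 value of pig 3 at 24 h (7.29) lies far below its earlier ones.

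HSPA6 encodes an HSP70 protein that in human cells is made almost only under stress. Its log2 intensities at 20 min were 6.78, 9.29 and 9.12 for pigs 1, 2 and 3. They were 6.29, 9.72 and 9.33 at 2 h, and 6.44, 9.07 and 8.99 at 6 h. At 24 h they were 6.59, 9.94 and 7.29. Pig 1 was low at all 4 times, pigs 2 and 3 were high and close to each other up to 6 h, and at 24 h pig 2 had its highest value and pig 3 its lowest. The 3 animals differed by -0.19, 0.65 and -1.83 at 24 h against 20 min, which is a 3.56-fold lower value in pig 3 and a 1.57-fold higher one in pig 2.

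The mean HSPA6 level was 7.94 ± 1.77 at 24 h and 8.40 ± 1.40 at 20 min (SD, n = 3 pigs each). The log2 change was -0.46 ± 1.26 (SD over 3 pigs; 95% interval -1.34 to 0.42; limma adjusted p = 0.639), an interval that runs from a 2.53-fold lower to a 1.34-fold higher level. The direction rested on pig 3: without this pig the change was 0.23, and without its 24 h array alone 0.27. At 2 h the change was 0.05 (interval -0.83 to 0.93; limma adjusted p = 0.984), with 2 of 3 pigs higher, and it was -0.14 without pig 2 and -0.03 without pig 3. At 6 h it was -0.23 (interval -1.11 to 0.65; limma adjusted p = 0.890), lower in 3 of 3 pigs, as were 16.6% of all probe sets. A bulk portion of muscle cannot tell fewer cells of a type from less RNA per cell, here or below.

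Marker levels of other cells also differed between the pigs. Of 11 macrophage and leukocyte markers 7 were on the array, and their mean log2 intensity differed at 24 h against 20 min by -0.38, -0.41 and -1.45 for pigs 1 to 3. Pig 3 had the highest such mean at 20 min (6.81) and already differed by -0.76 at 2 h and -0.57 at 6 h. The log2 of their summed intensity ranged from 8.26 to 9.02 at 24 h and from 9.33 to 10.31 at 20 min; the scale has no true zero, and the dimmest marker averaged 3.98. The 3 adipocyte markers measured of 6 differed at 24 h by -0.13, -0.12 and -0.85 for pigs 1 to 3, the 6 fibroblast and matrix markers of 8 by 0.10, -0.05 and -0.57, the 4 smooth muscle and pericyte markers of 6 by -0.09, 0.31 and -0.41, and the 8 endothelial markers by 0.02, 0.27 and -0.24. Pig 3 was not lowest in every list. The 10 muscle markers differed at 24 h by -0.007, 0.11 and 0.14 for pigs 1 to 3. The 3 erythroid and blood markers of 5 differed by -0.14, 0.11 and 0.01. Single markers did not all go one way. Averaged over the pigs, 2 of the 7 macrophage and leukocyte markers and 4 of the 8 endothelial ones were higher at 24 h. The same held for 7 of the 10 muscle markers and for 1 marker in each of the other lists. The excess of 3′ over 5′ signal, read as a sign of RNA breakdown, differed at 24 h by 0.38, -0.01 and 0.47 for EF1A, by 0.06, 0.01 and 0.04 for GAPDH and by 0.09, -0.23 and -0.04 for ACTB. The EF1A excess itself was 0.479, 0.625 and 0.231 at 20 min and 0.856, 0.615 and 0.70 at 24 h in pigs 1 to 3. Their part in the HSPA6 values was not tested.

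HSPH1, the HSP110 exchange factor of cytosolic HSP70, was lower at 24 h in each pig. Its log2 intensities at 20 min were 11.06, 12.03 and 11.74 for pigs 1, 2 and 3. At 2 h they were 11.11, 11.62 and 11.56, and at 6 h 11.12, 11.58 and 11.55. The 24 h values were 10.77, 11.49 and 11.41, in each pig the lowest of its 4 values. The groups overlap, since pig 1 at 20 min was below pigs 2 and 3 at 24 h, but within each pig the later value was the lower one.

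The HSPH1 mean was 11.22 ± 0.39 at 24 h and 11.61 ± 0.50 at 20 min (SD, n = 3 pigs each), a log2 change of -0.39 ± 0.14 (SD over 3 pigs; 95% interval -0.60 to -0.17), or a 1.31-fold lower level. This did not pass over all probe sets (limma unadjusted p = 0.00221, adjusted p = 0.210), and the unadjusted p was 0.0410 with pig as a random block and 0.161 with no block. It was lower in 3 of 3 pigs, by 0.29, 0.54 and 0.33 in pigs 1, 2 and 3, as were 16.7% of all probe sets, and 6.67% of all were lower at an unadjusted p under 0.05. At 2 h pigs 2 and 3 already differed from 20 min by -0.41 and -0.17, while pig 1 differed by 0.05. The mean change was -0.18 at 2 h (interval -0.39 to 0.04; limma adjusted p = 0.665) and -0.20 at 6 h (interval -0.41 to 0.02; limma adjusted p = 0.588). Both rested largely on pig 2: without it they were -0.06 and -0.07, and without pig 1 they were -0.29 and -0.32. Between 6 h and 2 h the level differed by -0.02, and at 24 h it stood at -0.19 against 6 h, lower in 3 of 3 pigs as were 15.7% of all probe sets, with pig 1 at -0.34. For pig 2, where the HSPH1 difference was largest, the EF1A, GAPDH and ACTB measures at 24 h differed by -0.01, 0.01 and -0.23 from 20 min. At 2 h, when HSPH1 of pig 2 already differed by -0.41, these measures differed by 0.49, 0.04 and 0.31. Their part in the HSPH1 values was not tested.

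HSP90AA1 encodes HSP90 alpha, the inducible cytosolic HSP90, and its 5 probe sets gave different courses. The probe set Ssc.12191.1.A2_at read 13.44, 13.48 and 13.60 at 20 min in pigs 1, 2 and 3, then 13.42, 13.35 and 13.59 at 2 h, 13.44, 13.40 and 13.55 at 6 h, and 13.33, 13.27 and 13.58 at 24 h. It was nearly level, with a change at 24 h of -0.11 ± 0.09 (SD over 3 pigs; 95% interval -0.28 to 0.05; limma adjusted p = 0.538), and pig 3 stood above the other pigs at every time. Ssc.15662.1.S1_at was also nearly level, with 10.73, 10.91 and 10.91 at 20 min, 10.68, 10.82 and 11.06 at 2 h, 10.76, 11.07 and 10.96 at 6 h, and 10.68, 11.01 and 11.01 at 24 h. Its change at 24 h was 0.05 ± 0.09 (interval -0.13 to 0.24; limma adjusted p = 0.819), with pig 1 lower and pigs 2 and 3 higher.

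Lower values at 24 h were read at Ssc.12191.1.A1_at, which had 11.36, 11.76 and 11.94 at 20 min in pigs 1, 2 and 3. It read 11.32, 11.39 and 12.08 at 2 h, 11.61, 11.72 and 11.97 at 6 h, and 11.10, 11.53 and 11.79 at 24 h. Each pig had a lower value at 24 h than at 20 min and than at 6 h, while the pigs differed in direction at 2 h. The change was -0.21 ± 0.06 at 24 h against 20 min (SD over 3 pigs; 95% interval -0.45 to 0.02; limma adjusted p = 0.419). Against 6 h it was -0.29 ± 0.19 (interval -0.53 to -0.06; limma unadjusted p = 0.0194, adjusted p = 0.589), and 3.80% of all probe sets were lower in that comparison at an unadjusted p under 0.05.

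The remaining probe sets of HSP90AA1 lay on average on opposite sides of their 20 min values from 2 h on. Ssc.12191.2.A1_at read 9.06, 9.59 and 9.17 at 20 min in pigs 1, 2 and 3, then 9.23, 9.80 and 9.47 at 2 h, 9.23, 9.75 and 9.60 at 6 h, and 9.19, 9.79 and 9.59 at 24 h. It was higher than at 20 min in 3 of 3 pigs at each later time, with log2 changes of 0.22 at 2 h, 0.25 at 6 h and 0.24 at 24 h (95% interval at 24 h 0.06 to 0.43; limma adjusted p = 0.608, 0.497 and 0.281). Among all probe sets 13.8%, 15.4% and 17.8% were higher in 3 of 3 pigs at these times.

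Ssc.12191.3.A1_at had the widest course of the 7 relative to the pig differences. It read 8.64, 8.89 and 9.23 at 20 min in pigs 1, 2 and 3, and 8.41, 8.53 and 8.06 at 2 h. At 6 h it read 8.33, 7.68 and 8.28, and at 24 h 8.67, 7.95 and 8.87. All 3 pigs at 2 h and at 6 h lay below all 3 at 20 min, as did 3.48% and 3.81% of all probe sets, and at 24 h pig 1 was back at its first value. The log2 change was -0.58 ± 0.51 at 2 h (SD over 3 pigs; limma unadjusted p = 0.0220, adjusted p = 0.608) and -0.82 ± 0.46 at 6 h (limma unadjusted p = 0.00313, adjusted p = 0.488), a 1.76-fold lower level at 6 h with an interval from 1.26-fold to 2.46-fold lower. At 24 h it was -0.42 ± 0.49 (95% interval -0.90 to 0.06; limma adjusted p = 0.430), lower in 2 of 3 pigs, and against 6 h it was 0.40 (limma adjusted p = 0.694), higher in 3 of 3 pigs as were 18.3% of all probe sets. The 2 h change was -0.29 without pig 3, and the 24 h change was -0.17 without pig 2 and -0.65 without pig 1.

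**Figure D2:**
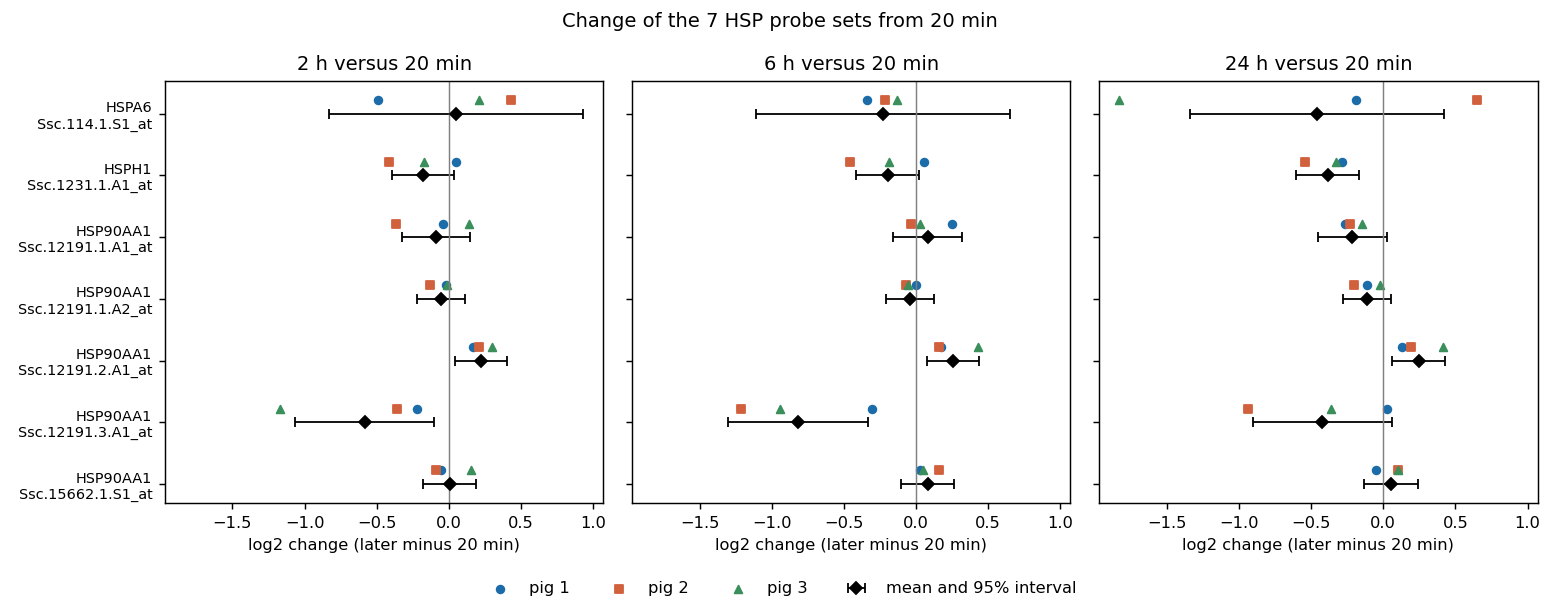
Log2 change from 20 min (horizontal axis, later minus 20 min) of the 7 probe sets at 2 h, 6 h and 24 h. Diamonds and bars give the limma mean and 95% interval, coloured points the 3 pigs. At 24 h the interval of HSPH1 lies below 0 and that of HSP90AA1 Ssc.12191.2.A1_at above it, while the HSPA6 pigs spread from -1.83 to 0.65.

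The 5 probe sets carry 1 gene symbol, so a single statement on HSP90AA1 depends on which of them is read. After removal of each pig's mean, their courses over the 12 arrays correlated with r from -0.729, between Ssc.12191.3.A1_at and Ssc.15662.1.S1_at, to 0.665, between Ssc.12191.1.A1_at and Ssc.12191.1.A2_at. These values describe 12 arrays of 3 pigs, which are not independent. The sequences of the probes, and with them which part or transcript form each set reads and whether a set also reads other genes of these families, were not used here.

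The pigs differed in level for HSPA6 by far more than the times did. Averaged over the 4 times, pigs 1, 2 and 3 had 6.53, 9.51 and 8.68, a span of 2.98 on the log2 scale, or 7.89-fold, against a span of 0.51 between the time means. Only 9 of 23999 probe sets had a wider span between pigs; the median probe set had 0.18. The span between time means was also wide, above that of 98.27% of probe sets, with a median of 0.17 over all of them. Pig 2 was above pig 1 by 5.68-fold at 20 min, 10.8-fold at 2 h, 6.20-fold at 6 h and 10.2-fold at 24 h. Pig 3 was above pig 1 by 5.05-fold, 8.23-fold, 5.84-fold and 1.62-fold at these times. Of the sum of squares of HSPA6 over the arrays, 85.3% lay between pigs and 2.22% between times, against medians of 31.8% and 21.0% over all probe sets.

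HSPH1 had the same order of pigs on a smaller scale. Its means for pigs 1, 2 and 3 were 11.02, 11.68 and 11.56, a span of 0.66, wider than that of 95.6% of probe sets, and 76.5% of its sum of squares lay between pigs. Among the HSP90AA1 probe sets the span ran from 0.21 to 0.60. The highest pig was pig 3 in 4 of them and pig 2 in Ssc.12191.2.A1_at, and Ssc.12191.3.A1_at alone had more of its sum of squares between times (51.1%) than between pigs (12.3%).

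Genes known as targets of heat shock factor 1 were read beside the 3 genes to see whether they ordered the pigs alike. Of 27 listed, 20 were on the array, each read at its brightest probe set. Pig 1 had the lowest mean of the 3 pigs in 15 of these 20, pig 2 in 5 and pig 3 in 0. Without HSPA6, HSPH1 and HSP90AA1 these numbers were 13, 4 and 0 of 17. Over all 6765 genes, pig 1 was lowest in 33.1%, pig 2 in 32.1% and pig 3 in 34.8%. The J-domain gene DNAJB1, the partner of inducible HSP70, averaged 7.27, 8.50 and 7.85 for pigs 1, 2 and 3, and HSPB1, a small heat shock protein gene, 13.18, 13.79 and 13.52. The constitutive HSP70 gene HSPA8 showed no such spread, with 13.09, 13.16 and 13.19. These genes share the same arrays and were chosen with earlier results of these data known, so the counts are a description of these 3 animals.

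**Figure D3:**
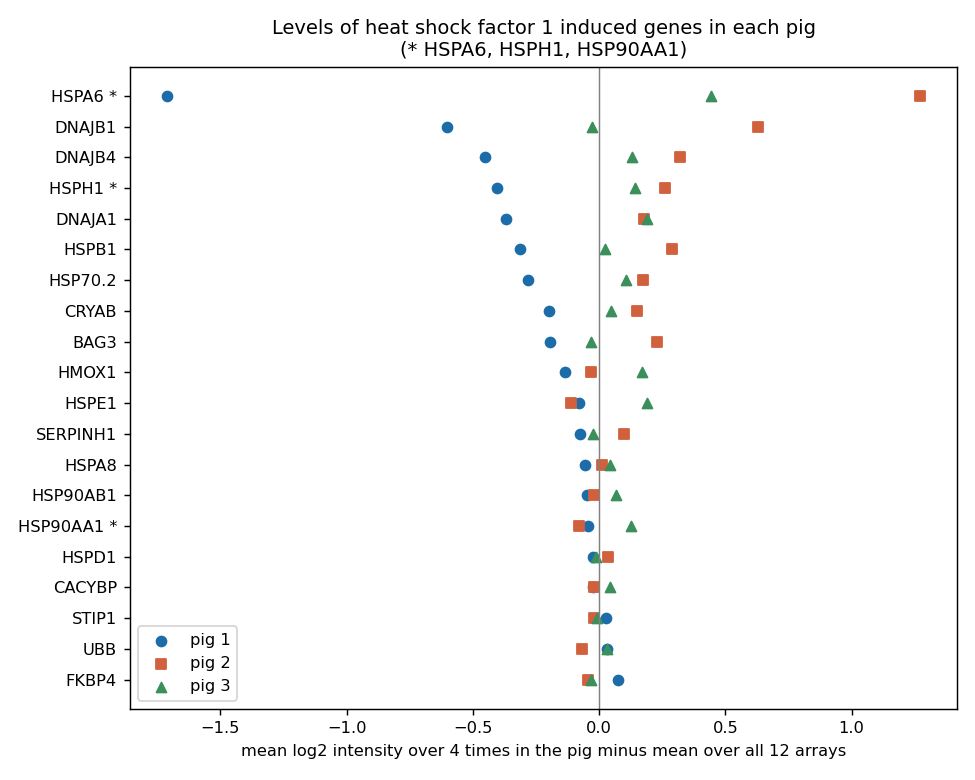
Mean log2 intensity over the 4 times in each pig minus the mean over all 12 arrays (horizontal axis) for the 20 genes of the heat shock factor 1 list, each at its brightest probe set; stars mark HSPA6, HSPH1 and HSP90AA1. Pig 1 is lowest in 15 of 20 genes, and HSPA6 has the widest span between pigs.

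HSP70.2, the pig counterpart of the main stress-inducible HSP70 genes, has 3 probe sets. At Ssc.5145.1.S1_a_at it read 12.26, 12.99 and 12.44 at 24 h in pigs 1, 2 and 3, against 12.45, 13.33 and 13.03 at 20 min. The change at 24 h was -0.37 ± 0.20 (SD over 3 pigs; limma adjusted p = 0.291), lower in 3 of 3 pigs and most negative in pig 3 at -0.59. Its brightest probe set, Ssc.5145.2.S1_at, differed by -0.26 ± 0.18 (limma adjusted p = 0.338), whereas Ssc.5145.1.S1_at differed by -0.0019 ± 0.30 (limma adjusted p = 0.996), higher in pig 1 and lower in pigs 2 and 3. After removal of pig means these 3 probe sets correlated with HSPH1 at r = 0.721, 0.812 and 0.320 and with HSPA6 at r = 0.700, 0.589 and 0.306, over 12 arrays.

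In the chaperone system as a whole, 0 genes of any of the 10 lists passed the adjusted threshold at 2 h, 6 h or 24 h by limma. For the HSP70 family, each of the 7 genes measured averaged lower at 24 h than at 20 min and 4 did so within every pig, against 48.0% and 16.7% of all probe sets, with a median log2 change of -0.23 against 0.008 over all probe sets. With the arrays centred on the brightest 25% of probe sets this list median was -0.19. At an unadjusted p under 0.05, 2 were lower, against 6.67% of all probe sets, and 1 had such a p with pig as a random block or with no block. Over all 23999 probe sets the number with such a p fell as well, from 3138 to 2669 with the random block and 1394 with no block. Of the 2 genes lower in the fixed-block fit, 1 is HSPA2, an HSP70 gene best known from the testis, at -0.33 ± 0.15 (limma adjusted p = 0.260), and the other is HSP70.2. HSPA13, an HSP70-like protein of microsomes, differed by -0.23 ± 0.25 and HSPA14, a ribosome-associated HSP70, by -0.08 ± 0.07.

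Among the HSP110 proteins and other exchange factors, 1 of 6 genes, HSPH1, was lower at an unadjusted p under 0.05 at 24 h and 0 were higher. The shares of all probe sets were 6.67% and 6.41%. With pig as a random block 1 of the 6 had such a p, and with no block 0. The list median was -0.04. HSPA4, the other HSP110 gene measured, differed by -0.05 ± 0.27, and the BAG-domain exchange factors BAG1 and BAG3 by 0.04 ± 0.13 and -0.03 ± 0.22. In the HSP90 family of 4 genes the median was -0.11. HSP90AB1, the constitutive cytosolic HSP90, differed by -0.14 ± 0.04 (limma adjusted p = 0.441), the endoplasmic HSP90B1 by -0.10 ± 0.27 and the mitochondrial TRAP1 by 0.07 ± 0.29.

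Of 19 J-domain cochaperones 4 were lower and 0 higher at an unadjusted p under 0.05 at 24 h, against 6.67% and 6.41% of all probe sets, and the median was -0.05. With pig as a random block 4 had such a p, and with no block 0, against 2669 and 1394 of all 23999 probe sets in these fits. DNAJA1, a cytosolic J-domain protein that feeds clients to HSP70, read 10.53, 11.04 and 11.07 at 24 h in pigs 1, 2 and 3, against 10.74, 11.50 and 11.26 at 20 min. It was lower in 3 of 3 pigs, with a difference of -0.29 ± 0.15 (limma adjusted p = 0.268). DNAJC9, a J-domain protein that binds histones, differed by -0.36 ± 0.38, and the endoplasmic reticulum members DNAJB14 and DNAJB9 by -0.25 ± 0.03 and -0.23 ± 0.06. Outside the naming rule, DNAJB1 differed by -0.20, 0.10 and -1.01 in pigs 1, 2 and 3, the same order of pigs as HSPA6 at 24 h.

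Of 22 HSP90 cochaperones 4 were lower and 0 higher at an unadjusted p under 0.05 at 24 h, against 6.67% and 6.41% of all probe sets, with a median of -0.06. With a random block or no block 3 had such a p, against 2669 and 1394 of all 23999 probe sets. PPID, a cyclophilin that binds HSP90, differed by -0.31 ± 0.15, NUDCD2, which stabilises HSP90 clients, by -0.25 ± 0.09, and the adaptor SUGT1 by -0.16 ± 0.19. SMYD1, a muscle methyltransferase that works with HSP90 in myosin assembly, was at 0.29 at 2 h, 0.25 at 6 h and -0.03 at 24 h (limma adjusted p at 24 h = 0.920). Of the heat shock factors, HSF2 differed at 24 h by -0.36 ± 0.09 (limma adjusted p = 0.306), HSF1, which drives the response to heat, by 0.10 ± 0.10, and its inhibitor HSBP1 by -0.03 ± 0.12.

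The chaperones outside the cytosolic HSP70 and HSP90 cycle had 24 h medians of -0.06 for 12 chaperonins and mitochondrial chaperones, -0.05 for 13 endoplasmic reticulum chaperones and -0.02 for 8 small heat shock proteins. The chaperonin subunit CCT2 was at -0.28 ± 0.06 and CCT6A at -0.12 ± 0.13, while CLPB, a mitochondrial disaggregase, was at 0.24 ± 0.05. The collagen chaperone SERPINH1 was at 0.25 at 2 h, 0.21 at 6 h and 0.07 ± 0.08 at 24 h, CANX at 0.06 ± 0.23 and PDIA6 at -0.20 ± 0.19 at 24 h. HSPB6, a small heat shock protein abundant in muscle, had a log2 change of 0.70 ± 0.48 at 2 h, 0.70 ± 0.45 at 6 h and 0.71 ± 0.43 at 24 h (limma adjusted p = 0.579, 0.463 and 0.193), higher in 3 of 3 pigs each time and larger in size than any mean change of HSPA6 or HSPH1. Over all probe sets 13.8%, 15.4% and 17.8% were higher in 3 of 3 pigs at 2 h, 6 h and 24 h. HSPB6 has 2 probe sets, of which only the brighter was read here. At 24 h this probe set differed by 0.22, 0.89 and 1.03 in pigs 1, 2 and 3. HSPB6 was the 1 gene of its list higher at an unadjusted p under 0.05 at 24 h, against 6.41% of all probe sets. HSPB8 was the 1 lower, at -0.24 ± 0.11, against 6.67%. With a random block or no block 1 of the 8 had such a p. HSPB7 was at 0.33 ± 0.53 and HSPB1 at -0.14 ± 0.08. Of the 20 genes of the heat shock factor 1 list, 17 averaged lower at 24 h than at 20 min, against 48.0% of all probe sets, and 4 were lower at an unadjusted p under 0.05, against 6.67%. With pig as a random block 1 of the 20 had such a p, and with no block 0, against 2669 and 1394 of all 23999 probe sets. The median was -0.10, and -0.055 with the arrays centred on the brightest 25% of probe sets. List genes were read at their brightest probe sets, whereas the shares cover all probe sets, bright and dim. HMOX1, the haem-degrading stress enzyme, was at -0.23 ± 0.35. Without pig 1 the 24 h medians of the HSP110, heat shock factor, endoplasmic reticulum and small heat shock protein lists were above 0, at 0.05, 0.03, 0.02 and 0.03. At 2 h the list medians lay between -0.08 and 0.05, and at 6 h between -0.10 and 0.06.

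**Figure D4:**
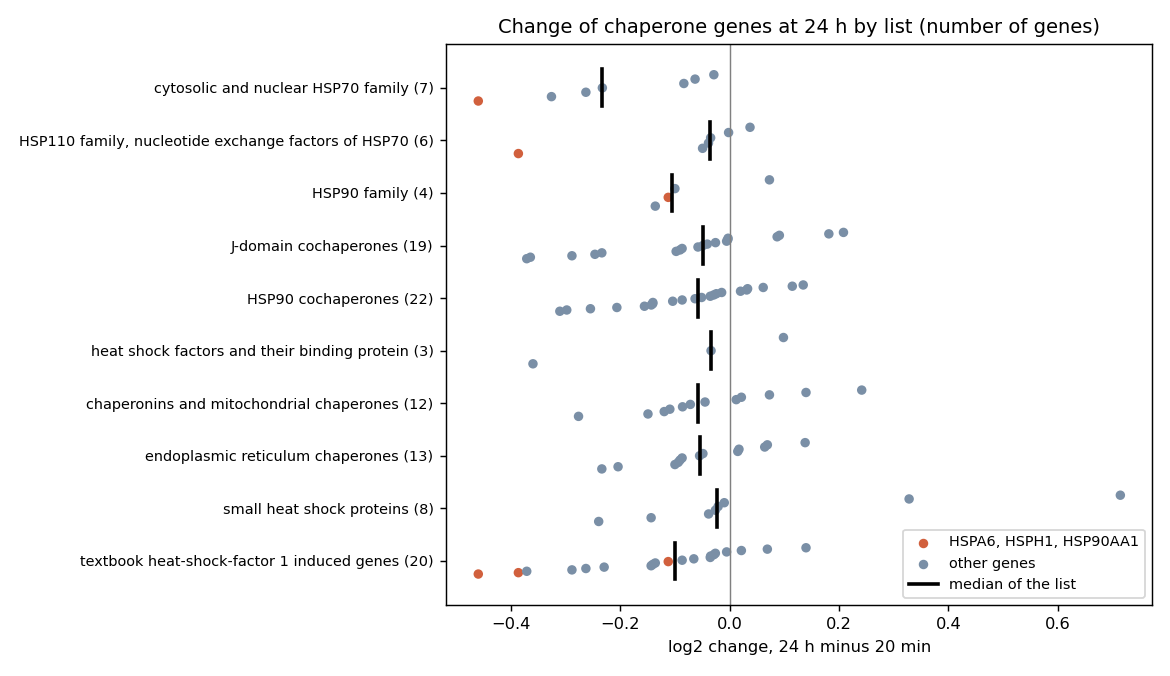
Log2 change at 24 h (horizontal axis, 24 h minus 20 min, mean of 3 pigs) of the genes of 10 chaperone lists, 1 point per gene at its brightest probe set, with HSPA6, HSPH1 and HSP90AA1 in orange and the list median as a bar. The list medians lie between -0.23 and -0.02, of which 4 are above 0 without pig 1, and no gene passed the adjusted threshold.

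Other genes with the most similar courses were found by correlation over the 12 arrays after removal of each pig's mean. For HSPA6 these were KIF2A (r = 0.963), MYL6 (r = 0.928) and TTLL1 (r = 0.904), and ABCC2 ran most opposite (r = -0.946). For HSPH1 they were AQP11 (r = 0.963), PRKRA (r = 0.946) and FUT8 (r = 0.940), with WIPF2 opposite (r = -0.931). AQP11 differed by -0.41 ± 0.24 and PRKRA by -0.63 ± 0.18 at 24 h against 20 min (limma adjusted p = 0.223 and 0.193), while WIPF2 was at 0.32 ± 0.08. Of the nearest gene to each HSP90AA1 probe set, TUBB followed Ssc.12191.1.A1_at (r = 0.962), MAPK14 followed Ssc.12191.1.A2_at (r = 0.909) and ST5 followed Ssc.12191.2.A1_at (r = 0.969). RPL6 followed Ssc.12191.3.A1_at (r = 0.978) and ELOVL6 followed Ssc.15662.1.S1_at (r = 0.936). PRKRA was also among the 3 nearest of Ssc.12191.1.A2_at (r = 0.867). With 10069 candidate probe sets and 12 arrays of 3 pigs, high values arise readily, and nothing is read from them about shared control.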

How the data were processed

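Biotin-labelled cRNA of the 12 portions was read on Affymetrix porcine arrays of one colour, as the labels' protocols state. The deposited values are log2 intensities. RMA and affy are named in the submitters' processing notes, and their versions were not given in the sources used here. RMA equalises the distribution of all arrays, so a change shared by all transcripts would not show. Arrays have no read depth; precision is set by how many there are. After 124 controls were removed from 24123 probe sets, 23999 were tested with no filter on level, so all 7 probe sets of the 3 genes were kept. Gene symbols are those of GEO's platform annotation and may be outdated; all 3 genes matched the Sscrofa11.1 RefSeq gene table by gene ID, and no coordinates are given because the array names no build.

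Groups and pig numbers came from the sample titles. With R 4.3.3 and limma 3.58.1 (statmod 1.5.0), every array entered a single fit with time and, as a fixed block, pig (6 residual and 5.67 prior degrees of freedom). Two-sided p-values were adjusted by Benjamini-Hochberg over all probe sets within each comparison, with 0.05 as threshold. The block follows from the design, in which each pig was sampled at all times; deviations from the time means correlated with r from 0.409 to 0.656 for the 18 array pairs of 1 pig and from -0.456 to -0.0386 for different pigs. Each time mean is that of the same 3 pigs, which by construction pushes the values for different pigs to the negative side. The model was tested on simulated data. The members and the 10 gene lists were chosen with earlier results of these data known. Each list gene was read at its brightest probe set, and up to 4 per list, those with the smallest F-test p, were named; for likeness the 3 highest and the 1 lowest correlation were named for each probe set, of which the text gives the nearest for HSP90AA1. Alternatives were no block or a random block, other normalisations, priors, weights and filters, each pig left out, and 2 single arrays of pig 3 left out, of which the 24 h one was added after seeing the data.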

Additional observations from a re-analysis of the deposited data

How the results depend on the processing

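Of 557 alternative values for the 7 probe sets, 537 kept the direction and side of the threshold and 20 changed sign; the smallest adjusted p among them was 0.11. Many of these values could not change sign. In this balanced design a change of block, prior, probe set filter or times entered leaves each log2 change as it was, and the F test has no direction. The count is therefore no measure of how firm the directions are. Signal over background is not in the deposited table, and 3 pigs limit every interval. The cause of each change below was not tested.

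The fit is paired by pig. With no replicate block, and with pig as a random replicate block, the number of all probe sets passing at 24 h against 20 min was 0, against 1 with the block, and likewise 0 against 1 in the F test; neither fit brought any of the 7 probe sets past the threshold. At an unadjusted p under 0.05, 2 of the 7 probe sets at 24 h against 20 min became 1 with the random block and 0 without a block, and 3 in the F test became 1 in both. Over all 23999 probe sets, 3138 became 2669 and 1394 at 24 h, and 1972 became 1562 and 628 in the F test. At 24 h against 20 min the count of all probe sets past the adjusted threshold was 0 with only the 2 times compared or without the 24 h array of pig 3, 2 without the 20 min array of pig 3, and 0 to 2 when 1 pig was left out. In the F test it was 0 without the dimmest 40% of probe sets, with cyclic loess or without the 24 h array of pig 3, 3 without the 20 min array of pig 3, and 0 to 1 when 1 pig was left out. At 24 h against 6 h the count of 0 became 4 with only the 2 times, 9 without the 20 min array of pig 3 and 0 to 1 when 1 pig was left out. With array weights it was 1 at 6 h against 20 min.

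HSPA6 without the 24 h array of pig 3 was at 0.27 at 24 h against 20 min and 0.50 against 6 h. When 1 pig was left out it ran from -1.01 to 0.23 at 24 h against 20 min, from -0.77 to 0.51 at 24 h against 6 h and from -0.14 to 0.32 at 2 h against 20 min. With cyclic loess, 24 h against 6 h gave 0.030 for HSP90AA1 Ssc.12191.2.A1_at and 0.0049 for Ssc.15662.1.S1_at. Centred on the brightest 25%, these were 0.035 and 0.016, and Ssc.12191.1.A2_at at 6 h against 2 h was at -0.0048. Without the 20 min array of pig 3, Ssc.15662.1.S1_at at 2 h against 20 min was at -0.025. When 1 pig was left out, 2 h against 20 min ran from -0.20 to 0.049 for Ssc.12191.1.A1_at and from -0.071 to 0.049 for Ssc.15662.1.S1_at, and 6 h against 20 min from -0.0034 to 0.14 for Ssc.12191.1.A1_at. Under the same omissions 6 h against 2 h ran from -0.0098 to 0.039 for Ssc.12191.1.A2_at, from -0.021 to 0.067 for Ssc.12191.2.A1_at, from -0.47 to 0.072 for Ssc.12191.3.A1_at and from -0.011 to 0.16 for Ssc.15662.1.S1_at, and 24 h against 6 h from -0.031 to 0.0099 for Ssc.12191.2.A1_at.

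The span between pig means, with 1 pig left out, ran from 0.83 to 2.98 for HSPA6 and from 0.12 to 0.66 for HSPH1, the lower value in both without pig 1. For HSP90AA1 it ran from 0.25 to 0.60 at Ssc.12191.1.A1_at, from 0.036 to 0.21 at Ssc.12191.1.A2_at, from 0.28 to 0.55 at Ssc.12191.2.A1_at, from 0.095 to 0.35 at Ssc.12191.3.A1_at and from 0.036 to 0.28 at Ssc.15662.1.S1_at.

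The HSP70 family median at 2 h was -0.11 with array weights, -0.014 without the 20 min array of pig 3 and -0.086 to -0.031 with 1 pig left out. That of the heat shock factors at 2 h was 0.060 with array weights and -0.014 to 0.043 with 1 pig left out. With 1 pig left out the J-domain median ran from -0.092 to 3.971e-05 at 2 h and from -0.021 to 0.025 at 6 h, and at 6 h the heat shock factor 1 list ran from -0.055 to 0.028 and the HSP90 cochaperones from -0.056 to 0.056, the last being 0.041 without the 20 min array of pig 3. At 24 h, the small heat shock protein median was 0.0031 with cyclic loess, and centred on the brightest 25% it was 0.021, that of the HSP110 list 0.0076 and that of the heat shock factors 0.010. Centred in this way, the HSP70, HSP90 and heat shock factor 1 lists had 24 h medians of -0.19, -0.062 and -0.055. Those of the J-domain and HSP90 cochaperones were -0.0046 and -0.013, and those of the mitochondrial and endoplasmic reticulum chaperone lists -0.014 and -0.011. With pig means kept, 0 of the 3 most similar genes were shared for HSPA6, HSPH1, Ssc.12191.1.A1_at and Ssc.15662.1.S1_at, and 1 for each other HSP90AA1 probe set.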

Other observations

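When pig means were kept, so that differences between animals counted as well, the genes most like HSPA6 over the 12 arrays were DUSP1 (r = 0.981), ZFP36 (r = 0.969) and BTG2 (r = 0.964), which encode a phosphatase that ends MAP kinase signals, a protein that destabilises cytokine mRNAs and an antiproliferative factor, all of them rapidly induced. DUSP1 read 9.87, 12.37 and 10.71 at 24 h in pigs 1, 2 and 3, against 10.22, 12.54 and 12.05 at 20 min. ZFP36 read 8.84, 11.0 and 9.72 at 24 h, against 8.76, 11.18 and 10.59 at 20 min. BTG2 read 8.76, 11.97 and 9.86 at 24 h, against 9.70, 12.02 and 10.94 at 20 min. Pig 1 was lowest at both times in all 3 genes, as for HSPA6. Pig 3 had the most negative difference at 24 h against 20 min, at -1.34 for DUSP1, -0.87 for ZFP36 and -1.08 for BTG2. The genes were picked by their correlation with HSPA6 with pig means kept, so this shared pattern follows from the choice. In pig 1 BTG2 also differed by -0.94 at 24 h, against -0.19 for HSPA6. The 9 probe sets with a wider span between pig means than HSPA6 include those of the early genes FOS (8.03, 12.49 and 12.02 in pigs 1, 2 and 3), ATF3 (8.19, 11.13 and 11.40), CYR61 (7.45, 10.87 and 8.95) and ANKRD1 (4.94, 9.05 and 7.51), in all of which pig 1 was lowest. Pig 1 was also lowest in a probe set with no symbol (9.86, 13.15 and 12.68 in pigs 1, 2 and 3). The rest of the 9 did not share this. Pig 2 was lowest in THBS2 (6.09, 5.66 and 9.15) and in a probe set with no symbol (7.34, 5.64 and 8.62). Pig 3 was lowest in SMPDL3A (9.65, 11.01 and 7.95) and in a further probe set with no symbol (9.14, 8.94 and 6.07). These genes were named after their values were seen.

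With pig means kept, the genes most like HSPH1 were DNAJA1 (r = 0.952), the cystine transporter gene SLC3A1 (r = 0.950) and HSP70.2 (r = 0.943). None of them was among the 3 nearest after removal of pig means, and nothing is read from them about shared control. The arrays of 1 pig are not independent, and these correlations describe 3 animals.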
